A study of Saccharomyces cerevisiae with 3 samples.

Results

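The 34 genes described here encode the core histones and the linker histone, cyclins, ribonucleotide reductase, the MCM helicase, DNA polymerase alpha's catalytic subunit, the sliding clamp and 4 regulators of the cell cycle. They were chosen by gene symbol, and all 34 of 34 had spots on the array, 2 each, among 5539 named genes. Each of 3 two-colour arrays compared total RNA of 2 strains of the budding yeast Saccharomyces cerevisiae directly. One strain is labelled YAP1 mutant and is a yap1 deletion mutant by the series title, and the other is the wild type. Both strains had been kept in 1.0 mM arsenite, As(III), for 1 h, so the wild type is not an unstressed control. No label names the strain background or says whether the cultures were synchronised. The arrays are numbered replicates 1 to 3, and nothing in the labels says that they came from separate cultures, so the p-values may measure technical spread alone. On every array Cy5 labelled the mutant and Cy3 the wild type, so dye and genotype cannot be told apart.

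YAP1 encodes a bZIP transcription factor that activates genes of the oxidative stress response, and arsenite is toxic in part through the thiols it binds. In a dividing yeast cell the genes described here are read in waves. The cyclin Cln3 starts the cycle, and the factors SBF and MBF then switch on G1 cyclins, S phase cyclins and genes of DNA synthesis. Histone genes follow during S phase, the mitotic cyclins and their companions in G2 and M, and the MCM genes, SIC1 and SWI4 around the end of mitosis. A difference in these transcripts between bulk samples can come from fewer cells in a phase or from less RNA per cell, which cannot be told apart here.

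Values are log2 ratios, likely mutant over wild type, after a signal-dependent trend had been removed from each array with a loess curve, a local regression. The direction is taken from the order of the sample titles and the dye labels, since the table does not state it. Means carry their standard error from limma (n = 3 arrays), and a gene was called changed at an adjusted p under 0.05 over 5539 genes (limma, Benjamini-Hochberg). On the deposited scale the arrays had medians of -0.52, -0.85 and -0.55. The brightest 10% of spots had medians of -1.13, -1.18 and -1.33, and the dimmest 10% medians of -0.27, -0.64 and -0.31. Replicate 1 had the widest spread, with a standard deviation over genes of 0.56 against 0.30 and 0.36. YAP1 itself, the deleted gene, had -0.34, -1.22 and -1.09 and averaged -0.88 ± 0.17 (limma, adjusted p = 0.00942). Its spots disagreed on replicate 1, at 0.08 and -0.75, and with spots as technical replicates it did not pass (limma, adjusted p = 0.161). The position of the YAP1 spots relative to the deletion was not analysed here, so a low ratio is a limited check of the labels.

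**Figure D1:**
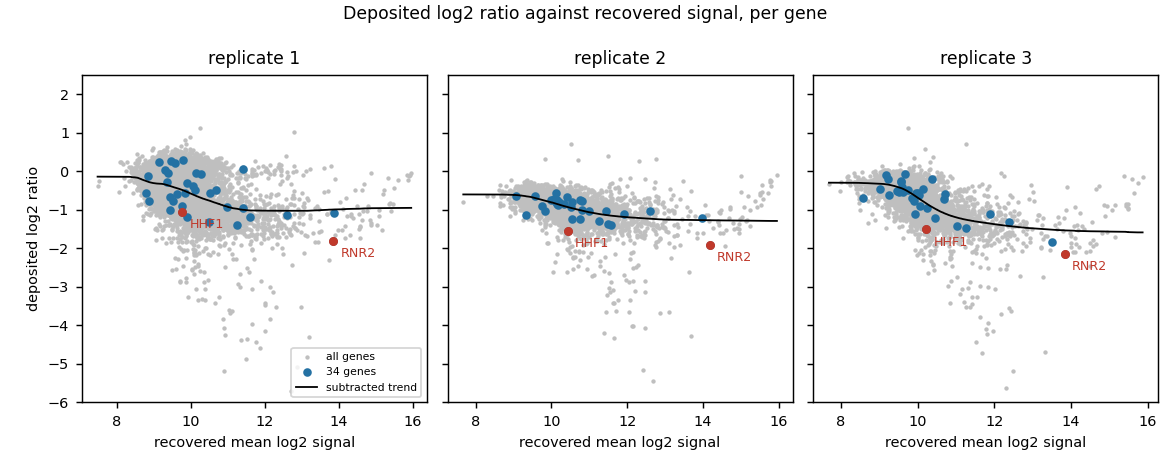
Deposited log2 ratio (vertical axis) against recovered mean log2 signal (horizontal axis) of each gene on each array. Grey points are all genes, blue points the 34 genes, red points RNR2 and HHF1, and the line is the trend that was subtracted. The ratio falls with signal on every array, and RNR2 and HHF1 lie below the line on all 3.

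Among the 34 genes, 2 fell in the mutant and 0 rose. RNR2, a small subunit of ribonucleotide reductase, had a mean of -0.69 ± 0.14 (limma, adjusted p = 0.011), and HHF1, 1 of the 2 histone H4 genes, had -0.62 ± 0.14 (adjusted p = 0.0184). The called share of 5.88% is close to the 5.24% called over all genes, in which 205 of 5539 fell (3.7%) and 85 rose (1.53%). Of the other 32 genes, 3 had positive means and 2 negative ones with an unadjusted limma p under 0.05. In total 20.6% of the 34 genes had such a p, beside 22% of all genes. In the reported loess fit the 95% interval of the mean lay within 2-fold in either direction for all 34 genes. So it did for 96.2% of all genes. The bound depends on the processing. HHF1 had -1.10 with normexp background correction before loess (limma, adjusted p = 0.0273), and RNR2 had -1.32 with median centring. For 23 of the 34 the loess interval lay within 1.5-fold. That bound was not counted over all genes, so the count shows nothing particular to the 34. The median of the 34 means was 0.05, against -0.01 over all genes, and their interquartile range was 0.37 against 0.36. The ratio had 1 sign on all 3 arrays for 16 of the 34, beside 47.6% of all genes. By these counts and by the interquartile range the 34 genes lay close to the array at large.

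**Figure D2:**
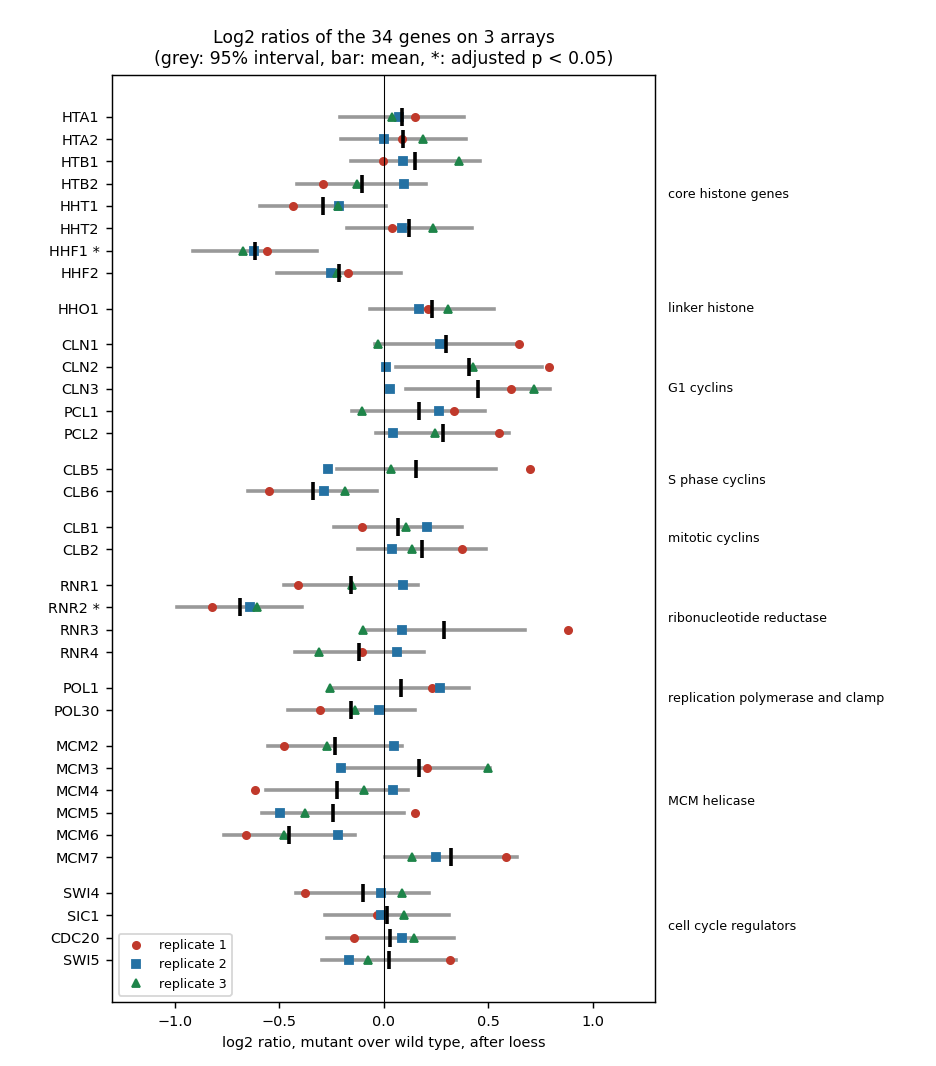
Log2 ratio of the 34 genes (horizontal axis, mutant over wild type, after loess) by role. Symbols are the 3 arrays, the black bar is the mean, the grey line its 95% interval, and an asterisk marks an adjusted p under 0.05. RNR2 and HHF1 lie below 0 on all 3 arrays with the arrays close together, whereas RNR3, CLB5, CLN1, CLN2, PCL1 and PCL2 have their highest value on replicate 1.

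Ribonucleotide reductase makes the deoxynucleotides that DNA synthesis uses. Its large subunit is encoded by RNR1 and by RNR3, the DNA-damage-induced form, and its small subunit by RNR2 and RNR4. RNR2 had -0.82, -0.64 and -0.61 on replicates 1, 2 and 3, so all 3 arrays were low and close together. Its spots were bright: the recovered signals of 1 spot on replicate 1 were 8210 in the mutant channel and 28853 in the wild-type channel, and those of the other spot 7511 and 26440. These signals are known up to a common factor that was inferred, whereas their ratio is exact. On the deposited scale RNR2 had -1.81, -1.92 and -2.14, which placed it between percentiles 1.03 and 2.09 of all genes on the 3 arrays. Its mean log2 signal of 13.95 lies in a range where the subtracted trend is large, and with median centring in place of loess the mean was -1.32. The call was lost without replicate 3 (-0.73, adjusted p = 0.0577) and with normexp background correction before loess (-0.78, adjusted p = 0.0923), both by limma.

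The other 3 genes of the enzyme were not called. RNR4 had -0.10, 0.06 and -0.31, with a mean of -0.12 ± 0.14. RNR2 minus RNR4 was -0.72, -0.71 and -0.29, so RNR2 was the lower on all 3 arrays. Both genes had bright spots, and the difference was nearly the same on the deposited scale, at -0.72, -0.71 and -0.32. RNR1 had -0.41, 0.09 and -0.15, and its mean was -0.16 ± 0.15. RNR3 had 0.88, 0.09 and -0.10, so that its mean of 0.29 ± 0.18 rests on replicate 1. On that array the recovered signals of 1 RNR3 spot were 6893 and 6824, those of its other spot 1117 and 1041, and on replicates 2 and 3 its wild-type spot signals were 1139 to 1448. The RNR3 transcript, which rises strongly under replication stress in yeast, was thus not called different between the strains under arsenite. Its 95% interval reached from -0.10 to 0.68.

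The core histones package DNA, and yeast holds 2 genes for each of them, arranged as 4 divergent pairs that each share a promoter. Of the 8 core histone genes HHF1 fell and the other 7 did not pass. After loess HHF1 had -0.56, -0.62 and -0.67, so all 3 arrays were low and lay closer together than those of RNR2. Its spot values ran from -0.71 to -0.50. On the deposited scale HHF1 had -1.05, -1.55 and -1.51, further apart than the values of RNR2. These lay at percentiles 22.2, 3.18 and 5.36 of all genes, so HHF1 did not stand out on replicate 1 before loess. The second H4 gene, HHF2, had -0.17, -0.25 and -0.22 and averaged -0.22 ± 0.14 (limma, adjusted p = 0.367). HHF1 minus HHF2 was -0.39, -0.37 and -0.45 on the 3 arrays. That gap rests on the loess step. On the deposited scale it was 0.15, -0.14 and -0.08. The HHF2 spots are the brighter ones, with a mean log2 signal of 11.40 against 10.14, and the trend subtracted from them is larger. The HHF1 call was lost without replicate 2 (adjusted p = 0.0562) or replicate 3 (adjusted p = 0.184), and when signals were recovered from each array alone (-0.51, adjusted p = 0.109), all by limma. HHF1 and HHF2 encode the same protein, and cross-hybridisation between their spots was not tested.

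Neither of the H3 genes was called. HHT1, which shares its promoter region with HHF1, had -0.43, -0.22 and -0.22, with a mean of -0.29 ± 0.14 (limma, adjusted p = 0.244). HHT2, the partner of HHF2, had 0.04, 0.09 and 0.24 and a mean of 0.12 ± 0.14. HHT1 minus HHT2 was -0.47, -0.30 and -0.46, and the difference kept its sign on the deposited scale (-0.44, -0.26 and -0.36). HHT1 and HHT2 also encode 1 and the same protein. The H2A genes HTA1 (0.15, 0.07 and 0.04) and HTA2 (0.09, 0.00 and 0.19) had means of 0.09 each. The H2B genes HTB1 (-0.00, 0.09 and 0.36) and HTB2 (-0.29, 0.10 and -0.13) had means of 0.15 and -0.11. The 4 H2A and H2B genes thus lay on either side of 0, and none of their 95% intervals reached 1.5-fold. Their recovered mutant signals were 703 to 1075 for HTA1, 538 to 857 for HTA2, 1204 to 1933 for HTB1 and 505 to 869 for HTB2. Those of the deleted gene YAP1 were 723 to 1815. Whether background narrowed such ratios was not tested, so the intervals describe the measured ratios and not the RNA change. HHO1, the linker histone gene, had 0.21, 0.17 and 0.31, a mean of 0.23 ± 0.14 (limma, adjusted p = 0.339).

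HHF1 lies next to a gene with a far larger decrease. In the RefSeq gene order HHF1 stands between HHT1 and FLR1, a multidrug exporter gene regulated by Yap1, and FLR1 lies on the same strand as HHF1. FLR1 had -3.86, -3.16 and -3.13, a mean of -3.38 ± 0.16 (limma, adjusted p = 2.23e-08). On the far side of HHT1 lies IPP1, the inorganic pyrophosphatase gene, which fell with -0.57 ± 0.14 (limma, adjusted p = 0.0301) but did not pass without replicate 3 (-0.52, adjusted p = 0.292). Along this stretch the means were therefore -3.38 for FLR1, -0.62 for HHF1, -0.29 for HHT1 and -0.57 for IPP1. Of 52 measured neighbours of the 34 genes that are not themselves among them, FLR1 and IPP1 were the 2 called genes (3.85%, against 5.24% of all genes). Whether the neighbourhood of FLR1 has a part in the HHF1 ratio was not tested. RNR2 lies between YJL027C (0.35) and RRN7 (0.26), neither of which passed.

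The G1 cyclins start the cell cycle. CLN3 encodes the upstream cyclin, CLN1 and CLN2 the cyclins that drive the cell through Start, and PCL1 and PCL2 partners of the kinase Pho85. None of the 5 was called, but all 5 means were positive, from 0.17 to 0.45, with a group median of 0.30. Of all 34 genes, 20 had positive means. CLN3 had 0.61, 0.03 and 0.72, a mean of 0.45 ± 0.16 (limma, adjusted p = 0.125). CLN2 had 0.79, 0.01 and 0.43, averaging 0.41 ± 0.16 (limma, adjusted p = 0.159). Replicate 2 lay near 0 for both genes while replicates 1 and 3 were higher, and without replicate 2 CLN3 passed (0.66, adjusted p = 0.0333 by limma). CLN1 had 0.65, 0.27 and -0.03, PCL2 had 0.55, 0.05 and 0.25, and PCL1 had 0.34, 0.27 and -0.10. The group medians were 0.61, 0.05 and 0.25 on the 3 arrays, so the group was highest on replicate 1, the array of widest spread. With median centring PCL2 alone of the 34 genes was called higher (0.44), whereas PCL1 turned to -0.09. With signals recovered from each array alone CLN3 had 0.12.

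The S phase cyclin genes lay far apart on replicate 1, and neither was called. CLB5 had 0.70, -0.27 and 0.03, with a mean of 0.16 ± 0.18, and CLB6 had -0.55, -0.29 and -0.19, with a mean of -0.34 ± 0.14 (limma, adjusted p = 0.184). CLB5 minus CLB6 was 1.25, 0.02 and 0.22, of 1 sign but of very unequal size. The mitotic cyclin genes CLB1 (-0.11, 0.21 and 0.11) and CLB2 (0.38, 0.04 and 0.14) had means of 0.07 and 0.18. CLB1 is a bright gene whose sign depends on the scale: with median centring it was called lower, at -0.52. CLB5 lies beside CLB2 and CLB6 beside CLB1 in the gene order, and in each pair the genes are transcribed toward each other, so that each pair holds 1 S phase and 1 mitotic cyclin gene.

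MCM2 to MCM7 encode the 6 subunits of the replicative helicase, and none was called. MCM6 came nearest, with -0.66, -0.22 and -0.48 and a mean of -0.45 ± 0.15 (limma, adjusted p = 0.0962). It passed with median centring (-0.54) and with quantile normalization (-0.45), and MCM5 passed without replicate 1 (-0.44, adjusted p = 0.0282 by limma). MCM5 and MCM2 are dim genes, at percentiles 1.52 and 6.43 of all genes by mean signal. MCM2 had a mean of -0.23 ± 0.15, MCM4 one of -0.22 ± 0.16 and MCM5 one of -0.24 ± 0.16, and in each of these the 3 arrays lay on both sides of 0. MCM7 (0.59, 0.25 and 0.13, with a mean of 0.32 ± 0.15) and MCM3 (0.21, -0.20 and 0.50, with a mean of 0.17 ± 0.16) had positive means. The 6 subunits of 1 complex thus ran from -0.45 to 0.32, with a median of -0.23. Array by array the medians were -0.16, -0.08 and -0.18, and without replicate 1 the median of the means was -0.07. POL1, the catalytic subunit of DNA polymerase alpha, had 0.23, 0.27 and -0.26, and POL30, the sliding clamp PCNA, had -0.31, -0.02 and -0.14. Their means were 0.08 ± 0.15 and -0.15 ± 0.14. POL30 is also dim, at percentile 1.86 by mean signal.

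The 4 regulators had means from -0.10 to 0.03. SWI4, the DNA-binding subunit of SBF, had -0.38, -0.01 and 0.09, averaging -0.10 ± 0.15. SIC1, the inhibitor of the B-type cyclin kinase, had -0.03, -0.01 and 0.10, a mean of 0.02 ± 0.14. SWI5, which activates SIC1 late in mitosis, had 0.03 ± 0.15, and CDC20, the activator of the anaphase-promoting complex, had 0.03 ± 0.14. The 95% intervals of all 4 lay within 1.5-fold, and an effect of background on these ratios was not tested.

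Grouped by the phase in which the transcripts are known to peak, 31 of the genes gave no common shift. RNR2, the gene with the lowest mean, was not among the 31. The median was 0.16 for 9 late G1 genes, 0.09 for 9 S phase genes, 0.05 for 4 genes of G2 and M and -0.10 for 9 genes of the M to G1 boundary. The S phase median minus that of the other phases was -0.18, 0.04 and 0.04 on the 3 arrays. With median centring the same difference, taken over the means, turned from 0.04 to -0.23. Of 10 paralog pairs compared, 4 had a difference of 1 sign on all 3 arrays: HHF1 and HHF2, HHT1 and HHT2, RNR2 and RNR4, and CLB5 and CLB6. The share among unrelated pairs of genes was not counted, so this count shows nothing particular to paralogs. On the deposited scale 6 pairs had 1 sign: HHF1 and HHF2 did not, whereas HTB1 and HTB2, RNR1 and RNR3, and CLB1 and CLB2 did. HTB1 minus HTB2 averaged 0.26 after loess and -0.25 on the deposited scale.

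The companion genes of these pathways were counted in 5 lists, with 132 genes measured. Of these 7 fell and 1 rose, a called share of 6.06%, beside 5.24% of all genes. In the list of ribonucleotide reductase control and the S phase checkpoint 3 of 22 genes fell, beside 3.7% of all genes. That list also holds the stress genes TSA1 and DDR48 and was chosen with earlier results of these data known, so its count is no measure of the pathway. The pooled share of 6.06% includes both genes and is no such measure either. WTM1, whose product anchors the small subunit of the enzyme in the nucleus, had -0.61, -0.65 and -0.91 (mean -0.72 ± 0.14, limma, adjusted p = 0.00942). WTM2, of the same list, went the other way with 0.70, 0.21 and 0.32 and was not called (mean 0.41 ± 0.15, limma, adjusted p = 0.13). TSA1, a peroxiredoxin gene activated by Yap1 whose loss raises mutation rates in yeast, had -1.29 ± 0.14, and DDR48, a stress-induced gene, had -0.65 ± 0.14. Without replicate 3 WTM1 (-0.63, adjusted p = 0.143) and DDR48 (-0.71, adjusted p = 0.0724) did not pass in limma. The checkpoint kinase genes MEC1 (-0.40) and DUN1 (-0.42) and RFX1 (-0.00), whose product represses RNR genes, did not pass either. Nor did RAD53 (-0.08), TEL1 (0.31) and RAD17 (0.44) of the same list. SML1, the gene of the enzyme's inhibitor, had -0.04 ± 0.14. The median of the list was -0.05.

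Of 46 further replication genes RFA2 fell and POL31 rose. RFA2, the middle subunit of the single-strand binding complex RPA, had -1.02, -0.51 and -0.65, with a mean of -0.73 ± 0.15 (limma, adjusted p = 0.0116), and did not pass with signals recovered from each array alone (-0.66, adjusted p = 0.0587). The other RPA subunits RFA1 (-0.36 ± 0.15) and RFA3 (-0.14 ± 0.14) did not pass. POL31, a subunit of DNA polymerase delta, had 0.60 ± 0.15 (limma, adjusted p = 0.0302), but it did not pass with median centring (0.10) or without replicate 3 (0.67, adjusted p = 0.105 by limma). Of 33 further genes of G1/S and mitotic control CDC34 and ASE1 fell. CDC34, the ubiquitin-conjugating enzyme of the SCF complex that marks Sic1 for breakdown, had -0.66, -0.85 and -0.71 (mean -0.74 ± 0.14, limma, adjusted p = 0.00684). ASE1, a spindle midzone protein gene, had -2.11, -0.86 and -0.47, low on all 3 arrays but by unequal amounts (mean -1.15 ± 0.23, limma, adjusted p = 0.0114). Without replicate 1 ASE1 had -0.67, and it did not pass with signals recovered from each array alone (-1.20, adjusted p = 0.136 by limma). Of 15 genes read at the M to G1 boundary the chitinase gene CTS1 fell, at -0.55 ± 0.14 (limma, adjusted p = 0.0395), but did not pass without replicate 3 (-0.49, adjusted p = 0.334). None of 16 genes of histone gene control, histone chaperones and histone variants was called (limma), and HTZ1, the H2A.Z gene, had the smallest p among them with 0.25 ± 0.15. HIR1, a subunit of the histone repressor HIR, had 1.18, -0.06 and -0.28.

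**Figure D3:**
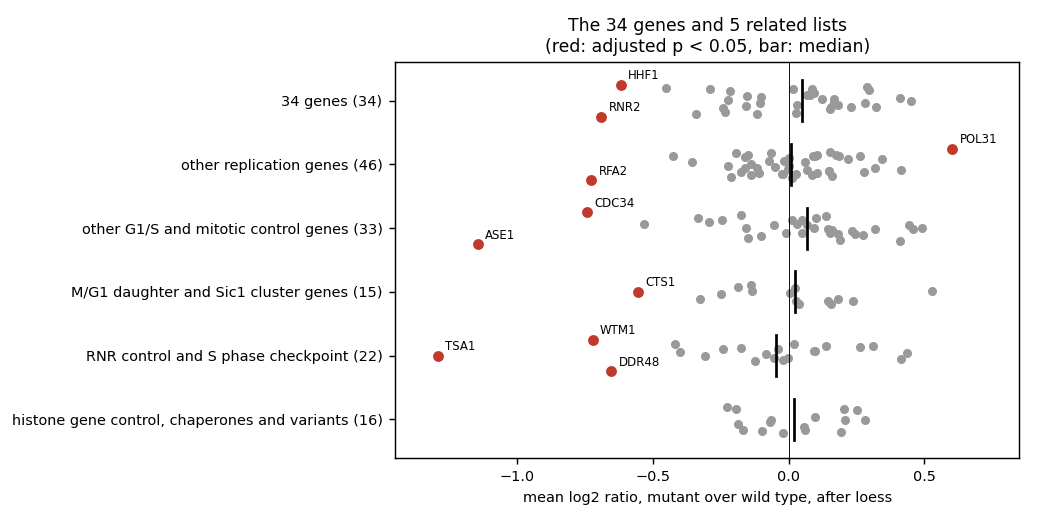
Mean log2 ratio (horizontal axis, mutant over wild type, after loess) of the 34 genes and of 5 lists of related genes, with the number measured in brackets. Each point is a gene, red points have an adjusted p under 0.05 and the bar is the list's median. The medians lie between -0.05 and 0.07.

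How the calls depend on the scaling is seen best against all genes. With median centring 8 of the 34 genes were called lower, beside 17.8% of all genes, and 1 higher, beside 4.28%. The 8 were HHF1, HHF2, HHT1, CLB1, CLB6, RNR2, RNR4 and MCM6. Over all genes that setting gave 984 lower and 237 higher calls. On the deposited scale, where the median of all genes was -0.66, 27 of the 34 were called lower, beside 75.7% of all genes, and 0 higher, beside 0.0181%. RNR2 (-1.96) and HHF1 (-1.37) lay below that median. RNR2 passed under 12 of 16 alternatives, with means from -1.96 to -0.62 and adjusted p from 2.11e-13 to 0.405. HHF1 passed under 11 of 16, with means from -1.37 to -0.51 and adjusted p from 1.96e-04 to 0.346. Both counts include the deposited scale, where 75.7% of all genes were called lower. Several other alternatives used the same loess values, so the 16 are not independent checks.

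**Figure D4:**
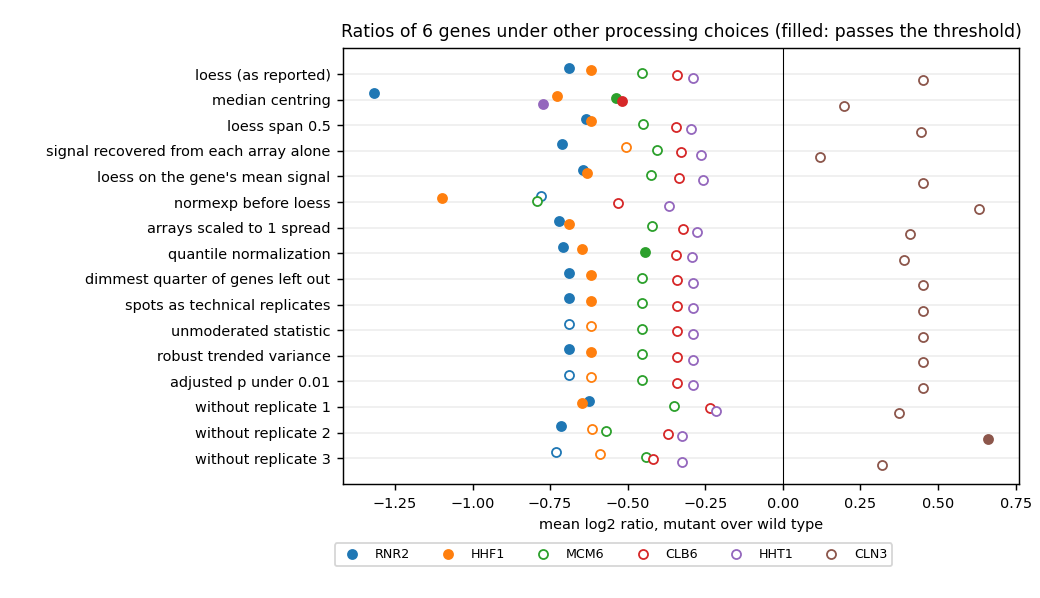
Mean log2 ratio (horizontal axis) of RNR2, HHF1, MCM6, CLB6, HHT1 and CLN3 under the reported loess processing and 15 of its 16 alternatives (the deposited scale is left out). Filled points pass the threshold of that setting. The 6 genes keep their sign in every setting drawn, and the bright gene RNR2 moves most, to -1.32 with median centring.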

How the data were processed

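The authors deposited 1 log2 ratio per spot for 13056 spots on each array, with no missing value; how they made and normalized it is not given in the sources used here. As powers of 2, 100% of the values were quotients of whole numbers (relative tolerance 1e-13). Both channel signals were recovered from these ratios, with the common factor settled over all spots of a gene on the 3 arrays; on simulated signals 87.6%, 86.3% and 87.7% of spots came within 0.5 log2. A loess curve on that signal (span 0.3) was subtracted within each array. Gene names came from the platform annotation (11138 spots, 5539 genes, 5534 of them in RefSeq's R64 table, whose gene order was also used). Spots were averaged per gene, and limma 3.58.1 (R 4.3.3) tested the mean against 0, two-sided. On simulated arrays of 5539 genes, with sets of 50 genes altered by 1.5-, 2-, 4- and 8-fold, the called shares were 72%, 98%, 100% and 100%, and 11 of all 196 calls were false. There the noise of a gene had the same spread on all 3 arrays, and the recovered signals were taken as free of error. The wider spread of replicate 1 and any dye effect were left out, so these shares may be too favourable for the real arrays. The number of arrays limits the precision.

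All 34 genes, YAP1 and, of each related list, the called genes or else the gene of smallest p were named by rule; FLR1, IPP1 and other uncalled genes of those lists were chosen after their values were seen. The genes, the lists and the loess step were chosen with earlier results of these data known, and the phase grouping, the signal recovery and the alternatives on it after seeing the data. Alternatives covered centring, loess, background, scaling, spots, variance, threshold and arrays left out. Tables were made in Python 3.11.15 (pandas 2.3.3, numpy 2.4.6) and figures drawn with matplotlib 3.10.9.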

Additional observations from a re-analysis of the deposited data

How the results depend on the processing

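The 16 alternatives include 2 chosen after seeing the data, which recovered the signal from each array alone or ran loess on a gene's mean signal. Over all genes 205 fell and 85 rose; the deposited scale gave 4191 and 1, median centring 984 and 237, signals recovered from each array alone 86 and 15, quantile normalization 360 and 171, a robust trended variance 396 and 197, an adjusted p under 0.01 gave 95 and 26, and leaving out 1 array 142 to 315 and 28 to 197. Higher genes numbered 139 with loess on the mean signal and 23 with normexp before loess. limma's fit without moderation called 0 genes in either direction, with 556 at an unadjusted p under 0.05. Of the 34 genes 2 fell and 0 rose; the lower count was 27 on the deposited scale, 8 with median centring, 1 with signals recovered from each array alone, 1 with normexp, 0 without moderation (4 at an unadjusted p under 0.05), 0 at an adjusted p under 0.01, and 0 to 3 with 1 array left out, and the higher count was 1 with median centring and 0 to 1 with 1 array left out. YAP1 did not pass with signals recovered from each array alone (-0.86), with arrays scaled to 1 spread (-1.13), and with spots as technical replicates or without moderation (-0.88 in both). The S phase difference of 0.04 became -0.23 on the deposited scale and with median centring. Paralog pairs of 1 sign numbered 4, and 4 to 9 with 1 array left out. The latter counts are higher by construction, since 2 arrays share a sign more easily than 3. On the deposited scale, whose median was -0.66, these genes with positive means were called lower: HTA1 (-0.59), HTA2 (-0.46), HTB1 (-0.90), HHT2 (-1.06), HHO1 (-0.52), PCL1 (-0.73), CLB1 (-1.16), POL1 (-0.75), MCM3 (-0.82), MCM7 (-0.46), SIC1 (-0.72), CDC20 (-0.54), SWI5 (-0.49) and POL31 (-0.54). CLB1 also was with median centring (-0.52). The causes of these changes were not tested. Each array is itself a direct ratio of both strains, so the test of the mean ratio against 0 already used that pairing. No further pairing was possible with 1 group of arrays.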
